A study of Mus musculus with 2 samples.

Results

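Cells with transcripts of the T-cell receptor complex made up a small share of the lung cells sorted for a p16 reporter in old mice. The members were chosen by measured values of 13 genes. The set held the cells with a UMI (a unique molecular identifier, which counts 1 captured RNA molecule) of at least 2 of the 5 genes Cd3e, Cd3d, Cd3g, Trbc2 and Nkg7. Their mean natural-log value of the 4 endothelial genes Cldn5, Cdh5, Ramp2 and Egfl7 had to be below 2, and they could hold fewer than 2 of the 4 gamma delta T-cell genes Trdc, Tcrg-C1, Cd163l1 and Il17a. This gave 123 of 1344 cells, a share of 9.15% with an exact 95% binomial interval of 7.66% to 10.8%. The labels have 1 group of 2 samples and no control: p16-FDR mice on a C57BL/6 background, aged 20 to 22 months and not otherwise treated as far as the labels say, whose allele carries an FLP recombinase and a diphtheria toxin receptor joined to mCherry, a red fluorescent protein. The protein p16 is the cell-cycle inhibitor encoded by Cdkn2a, and the mCherry-positive cells were profiled by 10x Genomics droplet sequencing of RNA 3' ends. Every cell therefore carried the allele and had passed the sort, so reporter-negative T cells were not analysed here.

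T cells recognise antigen through a receptor whose alpha and beta chains sit in the membrane with the CD3 chains, and their signal passes through the kinases Lck and Zap70. The coreceptor CD4 reads MHC class II and marks helper and regulatory T cells, whereas CD8, a pair of alpha and beta chains, reads MHC class I and marks cytotoxic T cells. Natural killer (NK) cells share the granule proteins of cytotoxic T cells and lack the CD3 complex and the rearranged receptor.

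The 2 libraries named in the cell barcodes could not be tied to the 2 samples, so the table was treated as 1 pooled sample and no test between groups was possible. No p-value is given: rates are summed UMIs of a gene per 10000 UMIs of the set, with exact 95% Poisson intervals, shares carry exact binomial intervals, and both cover counting error only. Library 1 held 119 members among 1145 cells (10.4%, 8.69% to 12.3%) and library 2 held 4 among 199 (2.01%, 0.550% to 5.07%), so the 4 cells of library 2 were too few for values of their own. The libraries shared 0 cell barcodes. Members had a median of 3686 UMIs (2574 to 16839) and 1335 genes per cell, against 6095 UMIs and 2337 genes in the other 1221 cells, of which 611 had an endothelial mean of 2 or more. Shares are therefore also given after thinning each cell to 2500 UMIs. Scgb1a1, a secretory-cell gene, had a UMI in 83 of the 123 members, a gauge of free RNA in the droplets. No doublets were removed.

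The genes that chose the cells sit partly side by side. Cd3g and Cd3d lie head to head on mouse chromosome 9 (GRCm38; Cd3g at 44969572 to 44980431 on the minus strand, Cd3d at 44981786 to 44987339 on the plus strand), with 1355 bases between their first bases, and Cd3e follows at 44998740 to 45009627 on the minus strand. Nkg7 lies on chromosome 7 at 43437073 to 43438249 on the plus strand. The promoter windows of 3 genes, from 250 bases before the start to 50 bases from it on, are shown because they serve the receptor complex and the cytotoxic granule respectively. The starts are RefSeq's, and for Nkg7 that start lies downstream of the first base given above. The sequences are RefSeq's (build GRCm38.p6), 5′ to 3′ on the gene's strand, at chr9:44980382-44980681 for Cd3g, chr9:44981536-44981835 for Cd3d and chr7:43436888-43437187 for Nkg7. Capitals mark matches to AGGAAG, a core bound by ETS factors, and TGTGGT, a core bound by RUNX factors, on either strand.
Cd3g: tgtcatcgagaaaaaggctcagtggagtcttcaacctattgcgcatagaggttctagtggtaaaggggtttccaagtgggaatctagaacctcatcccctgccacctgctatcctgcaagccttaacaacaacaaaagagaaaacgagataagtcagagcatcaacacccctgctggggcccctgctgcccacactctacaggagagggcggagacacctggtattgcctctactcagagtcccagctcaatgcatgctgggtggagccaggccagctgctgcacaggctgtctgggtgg
Cd3d: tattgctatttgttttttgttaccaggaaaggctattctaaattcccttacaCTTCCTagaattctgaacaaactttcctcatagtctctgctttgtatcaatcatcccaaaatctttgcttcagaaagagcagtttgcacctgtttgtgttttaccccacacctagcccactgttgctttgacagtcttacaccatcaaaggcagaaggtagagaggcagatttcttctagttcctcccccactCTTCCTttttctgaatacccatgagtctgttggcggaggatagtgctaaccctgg
Nkg7: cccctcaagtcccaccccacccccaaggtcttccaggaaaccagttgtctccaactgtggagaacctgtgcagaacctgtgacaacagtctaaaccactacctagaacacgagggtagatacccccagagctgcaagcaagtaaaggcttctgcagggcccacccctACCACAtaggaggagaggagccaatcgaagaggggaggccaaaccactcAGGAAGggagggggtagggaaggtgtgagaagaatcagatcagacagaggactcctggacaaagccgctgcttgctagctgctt
Cd3d held 2 matches to the ETS core and 0 to the RUNX core, Nkg7 held 1 of each, and Cd3g held 0 of both. Among 32851 RefSeq windows of 300 bases, 35.4% held the ETS core and 16.8% the RUNX core. The matches are a description of letters, not of binding.

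Most members carried the alpha-chain gene of the alpha beta T-cell receptor, and 1 cell was NK-like. The rule admits a cell without Cd3 genes only where it holds both Nkg7 and Trbc2, so the number of NK-like cells says nothing of NK cells in the lung. Of the rule's genes, a UMI was found for Cd3g in 113 members, Trbc2 in 112, Cd3d in 107, Cd3e in 87 and Nkg7 in 57; these values chose the cells and are a description. Trac, the constant region of the alpha chain (chromosome 14, 54220521 to 54224206), was not in the rule and had a UMI in 88 of 123 members (71.5%, 62.7% to 79.3%), in 8 of 36 gamma delta T cells and in 1 of the 611 cells with a high endothelial mean. Trbc1, the other beta-chain constant gene, was outside the rule. It was seen at like shares, with a UMI in 64 of 123 members and in 18 of 36 gamma delta T cells. Trbc2 was seen in 112 and 34. It was 1 of the 5 genes that admitted cells to both sets, which partly fixed its shares. Trbc1 and Trbc2 are near-identical copies, so the split of reads between them is uncertain. Exactly 4 members had no UMI of Trac, Trbc1 or Trbc2. Ms4a4b, a membrane protein of T cells, had a UMI in 81 members (5.92 UMIs per 10000) and in 11 other cells (0.0239), and Ccl5 in 48 members and 17 others.

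Receptors shared by NK cells and T cells were seen in part of the set, with Klrk1 (NKG2D) in 27 members, Klrd1 in 21 and Klrg1 in 16. Of 7 tested genes of the NK receptor list 4 were at least 2-fold higher than in all other cells and 3 lower. Over all 9816 genes tested the shares were 11.6% and 30.7%. Genes closer to NK cells alone were rarer. Of the 12 NK-cell genes set as markers, the table holds 6, and Ncr1 was not analysed here. No gene of the 6 was seen in 98 members, 1 in 22 and 2 or more in 3. Klrb1c, the NK1.1 receptor, had a UMI in 3 members, Fcer1g in 4 and Tyrobp in 5, the last 2 being signalling adaptors of NK and myeloid cells. In the other cells Tyrobp had a UMI in 294 and Fcer1g in 259. The 1 cell without any Cd3e, Cd3d or Cd3g UMI came from library 2 and had 4292 UMIs in all: 134 of Gzma, 93 of Ccl5, 12 of Tyrobp, 11 of Nkg7, 8 each of Gzmb, Klrd1 and Fcer1g, 6 of Prf1, 5 of Klrc1 and 3 of Klrb1c, with none of Trac, Cd4 or Cd8a. This NK-like cell was 0.813% of the set (0.0206% to 4.45%). The 123 cells are therefore called the Cd3 and Trbc2 set below.

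**Figure D1:**
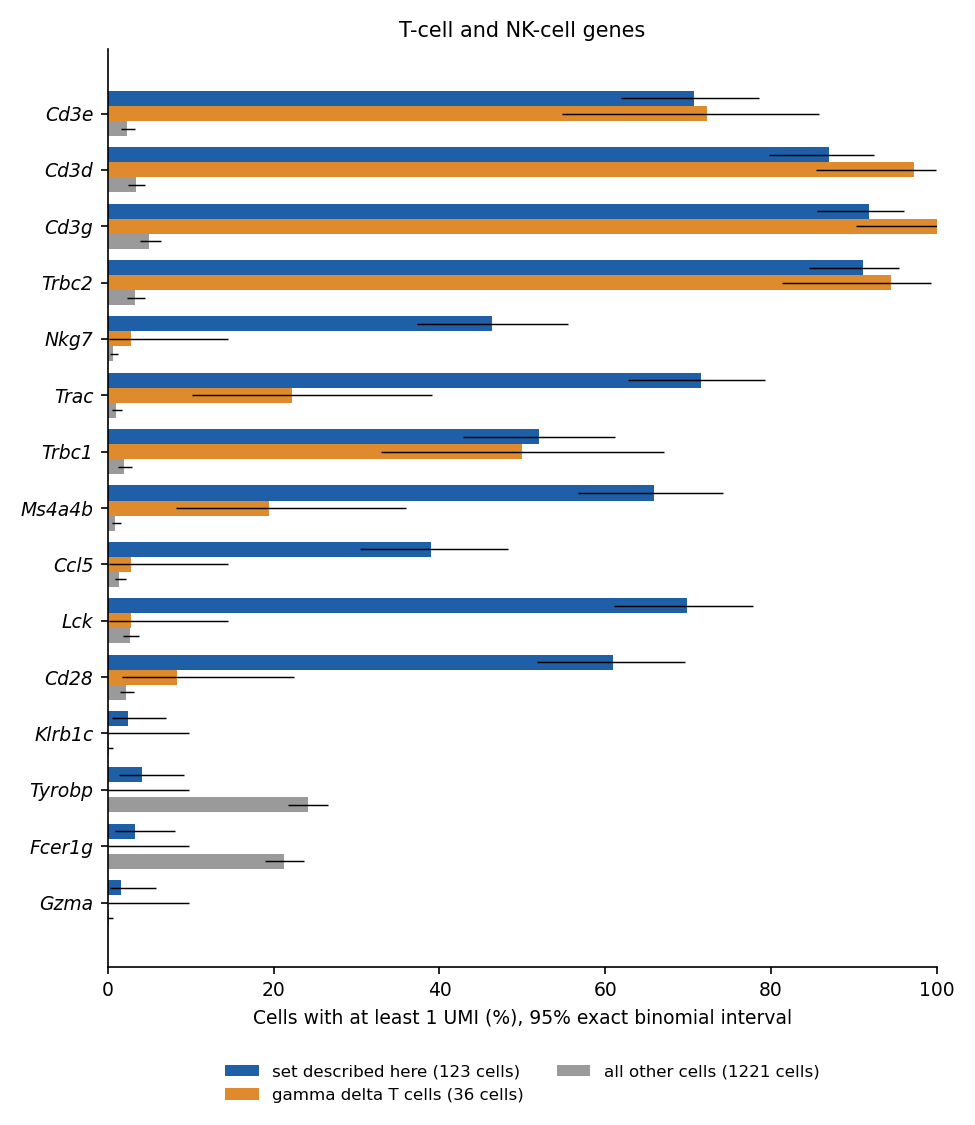
Share of cells with at least 1 UMI (x axis, %, with 95% exact binomial intervals) for 15 T-cell and NK-cell genes in the Cd3 and Trbc2 set, the gamma delta T cells and all other cells (which include the gamma delta cells). Trac, Ms4a4b, Lck and Cd28 are long blue bars, with a UMI in 88, 81, 86 and 75 of 123 cells, whereas Klrb1c and Gzma are near 0 (3 and 2 cells).

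Near the rule's threshold the identity thinned out. Among cells that met the 2 exclusions, 544 had 0 of the 5 genes, 30 had 1, and 11, 27, 52 and 33 had 2, 3, 4 and 5. The 30 cells just outside had a median of 7552 UMIs; 21 held Cd3g and 1 held Trac, and Tyrobp was seen in 12. The 11 cells just inside had a median of 4292 UMIs and held Trac in 5, Ms4a4b in 5 and Il7r in 6. The endothelial limit removed 2 cells, and the highest endothelial mean among members was 1.79. Genes of other lineages, counted as at least 3 genes of a list with at least 2 UMIs each, were found in 9 members, 5 of them with B-cell genes, 2 with phagocyte, 2 with fibroblast, 1 with endothelial and 1 with epithelial genes. Those 9 had a median of 8407 UMIs, and 0 of them held Cd8a or Cd8b1.

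Coreceptor transcripts split the set. Cd4 (chromosome 6, 124864692 to 124888221, minus strand) without Cd8 was seen in 34 members (27.6%, 20.0% to 36.4%), and Cd8a or Cd8b1 (chromosome 6, 71373427 to 71379173 and 71322788 to 71337494, both plus strand) without Cd4 in 27 (22.0%, 15.0% to 30.3%). A single cell held both, and 61 held neither (49.6%, 40.5% to 58.8%). The share of each coreceptor class lay within the interval of the other. After thinning the shares were 20.8% Cd4 only, 20.5% Cd8 only and 58.3% neither. Cd8a and Cd8b1 were seen together in 17 cells, Cd8a alone in 5 and Cd8b1 alone in 6. Cd4 had 1.23 UMIs per 10000 over the set, Cd8a 0.852 and Cd8b1 1.29, which are low enough for a cell with the transcript to be missed. Median depth was 3820 UMIs in the Cd4-only, 3763 in the Cd8-only and 3457 in the neither class. In the cells with a high endothelial mean, which should lack both, Cd4 had a UMI in 1 cell and Cd8b1 in 1 of 611.

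Among the 61 cells with neither coreceptor, Trac was seen in 37 and Trac or Trbc1 in 47. A Cd3 gene was seen in 60, which the rule nearly fixed. A gamma chain constant gene (Tcrg-C1, Tcrg-C2 or Tcrg-C4, which are close copies whose reads may be split between them) was seen in 14 of the 61 and in 26 of all 123 members, of which 9 had no Trac. Exactly 18 members held 1 of the 4 gamma delta genes of the rule and 105 held 0. Trdc, the delta-chain constant gene, had a UMI in 3 members and in 34 of the 36 gamma delta T cells. It is 1 of those 4 genes, so the rule set most of this contrast.

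All 21 listed genes of receptor signalling were at least 2-fold higher by rate than in all other cells, with a median ratio of 25.0. Over the 9816 genes tested, 11.6% were at least 2-fold higher and 30.7% at most 0.5 of the other cells' rate, with a median ratio of 0.792. Since Cd3 genes chose the cells, these ratios describe the set and test nothing. Sh2d1a, the adaptor SAP, was at 1.42 UMIs per 10000 (1.12 to 1.78) against 0.00434 (0.00118 to 0.0111), a ratio of 327. Themis, needed for thymic selection, was 261-fold higher. Cd6 and Cd5, receptors that tune the T-cell signal, were at ratios of 150 and 84.0. Lck was at 3.42 against 0.0532, Cd28 (costimulation) at 3.82 against 0.0641 and Lat (the membrane scaffold) at 3.60 against 0.0836. Ets1 was 5.11-fold and Rac2 5.77-fold higher, both genes that other lung cells carried too. The 11 genes of the Gimap and Ms4a families, small GTPases of lymphocyte survival and membrane proteins, were all at least 2-fold higher, from Gimap6 at a ratio of 2.36 to Ms4a4b at 248. Other leading genes were Cd40lg, the helper ligand for CD40 (248-fold), Trac (196-fold), Gm2682 (179-fold), Ctsw (120-fold) and Txk (74.8-fold).

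The genes furthest below the other cells were endothelial; the rule capped 4 such genes. Clic5, Ecscr, Tmem100, Foxf1 and Car4 had ratios of 0.00320, 0.00406, 0.00607, 0.00628 and 0.00689. All 8 tested endothelial genes, all 12 phagocyte genes, all 6 plasma-cell genes and all 6 fibroblast genes were at most 0.5 of the other cells' rate. Over all genes tested this share was 30.7%. Of the 5 dendritic-cell genes tested 2 were lower and 3 neither. The 10 listed dendritic-cell genes summed to 51.7 UMIs per 10000 against 104.3. None of the 5 neutrophil and mast-cell genes in the table was seen in a member. B-cell genes were closer: Cd79a had a UMI in 5 members, at 1.51 per 10000 against 2.34, and 1 of 7 tested was lower.

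**Figure D2:**
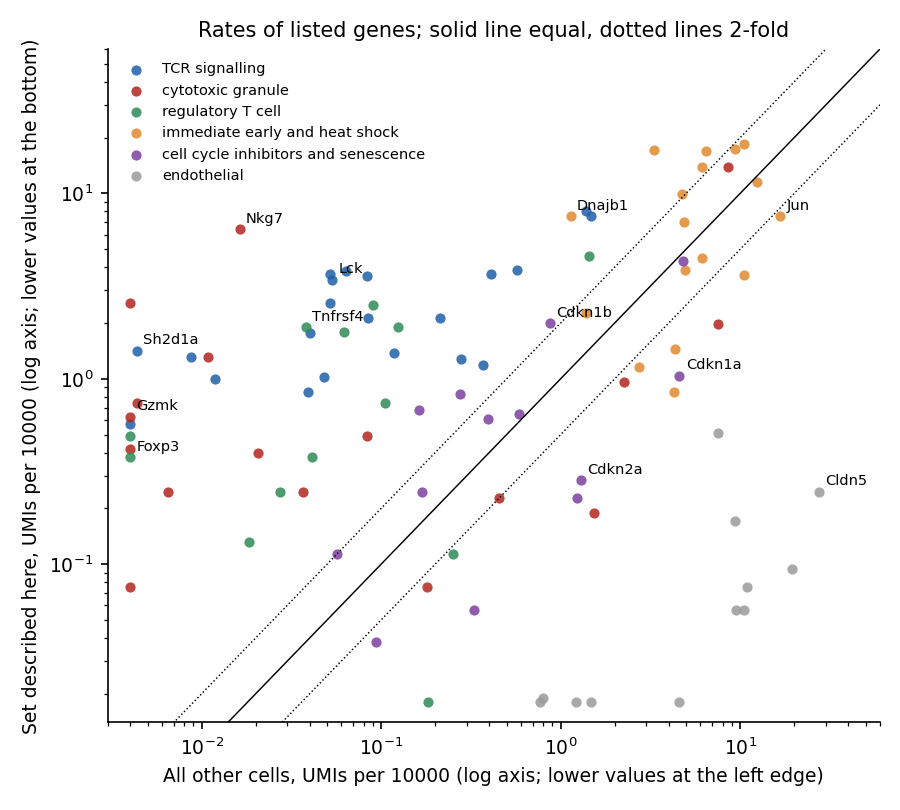
Rate of genes of 6 lists in the Cd3 and Trbc2 set (y axis) against all other cells (x axis), in UMIs per 10000 on log axes; the solid line is equality and the dotted lines a 2-fold difference. All 21 receptor-signalling genes lie above the upper dotted line and the endothelial genes below the lower one, with Cdkn2a and Cdkn1a also below it.

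Gamma delta T cells, set apart by the rule through 4 genes, allow a comparison within T cells. They carried Cd3g at 21.8 UMIs per 10000 against 8.61 in the set. Lck had a UMI in 1 of 36 gamma delta cells (0.0701 per 10000) and in 86 of 123 members, Cd28 in 3 and 75, Cd27 in 0 and 43, and Ms4a4b in 7 and 81. Zap70 and Lat did not show this split: Zap70 was at 1.26 and 0.852 and Lat at 4.70 and 3.60. In the other direction, the interleukin-7 receptor Il7r was at 18.1 in gamma delta cells and 9.20 in the set, S100a4 at 36.7 and 16.8, and the chemokine receptor Cxcr6 at 13.1 and 2.35, with a UMI in 34 of 36 and 44 of 123 cells. Median depth was alike, at 3750 and 3686 UMIs.

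Ccl5 was the most abundant effector transcript of the set and was carried by a minority of its cells. CCL5 is a chemokine that draws T cells and monocytes and is stored by memory CD8 T cells; its gene lies on chromosome 11 at 83525778 to 83530518. It was at 46.2 UMIs per 10000 over the set against 1.23 in all other cells, a ratio of 37.7. The lowest and the median cell held 0 and the highest 412 per 10000; among the 48 cells with a UMI the median was 140. The 40 cells with at least 10 Ccl5 UMIs held 98.5% of the 2440 UMIs. Carriers were 19 of 27 Cd8-only cells (70.4%), 11 of 34 Cd4-only (32.4%), 18 of 61 with neither and 1 of 36 gamma delta T cells. The rate was 106 (100.3 to 113) in Cd8-only and 27.7 (25.1 to 30.5) in Cd4-only cells. The classes overlapped cell by cell, with values from 0 in each and a highest of 290 in Cd4-only and 412 in Cd8-only cells.

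**Figure D3:**
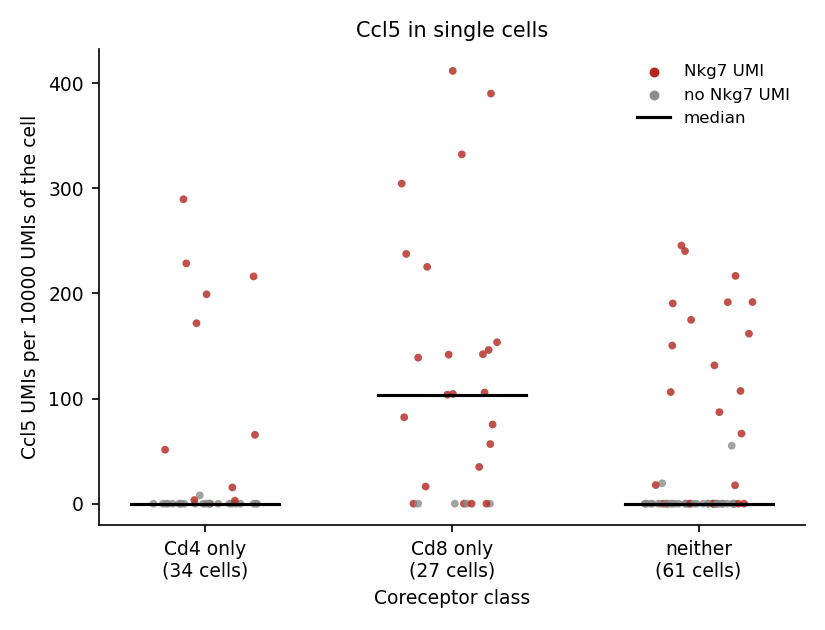
Ccl5 UMIs per 10000 UMIs of the cell (y axis) in each Cd4-only, Cd8-only and neither-coreceptor cell, red where the cell also had an Nkg7 UMI; black lines are medians. The Cd8-only median is 104 and the other medians are 0, and nearly all cells with Ccl5 are red (45 of 48 over the set).

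Several cytotoxic and effector genes were seen more often in cells with Ccl5 than in those without. Ctsw, a cathepsin, was seen in 28 of 48 cells with Ccl5 and 9 of 75 without. Klrd1 (the CD94 receptor) was seen in 20 and 1, Ifng in 16 and 2, Gzmk in 13 and 2 and Prf1 (perforin) in 12 and 4. The chemokine Xcl1 was seen in 11 and 1 and Ms4a4b in 45 and 36. Nkg7, a granule membrane protein, was seen in 45 (93.8%, 82.8% to 98.7%) and 12 (16.0%, 8.55% to 26.3%). It was 1 of the 5 genes that admitted cells, so its values are a description. Without Nkg7 in the rule the set was 9.08% of cells, against 9.15%. Cells with Ccl5 had the lower median depth, 3468 against 3802 UMIs. Trac was seen in 36 of 48 and 52 of 75, shares of 75.0% and 69.3% whose intervals overlap. Cxcr6 was seen in 14 and 30 and Il7r in 34 and 60.

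Granule proteases and perforin were thinly spread. At least 1 UMI of Gzma, Gzmb, Gzmk, Gzmm or Prf1 was found in 28 members (22.8%, 15.7% to 31.2%; 18.9% after thinning) and at least 2 of these genes in 10. Prf1, the pore-forming perforin, had a UMI in 16, Gzmk in 15, Gzmb in 4, Gzmm in 3 and Gzma in 2. Gzma illustrates how 1 cell can set a rate: 134 of its 135 UMIs were in the NK-like cell, and without it the rate fell from 2.56 to 0.0191 per 10000. Of 13 granule-list genes tested 7 were at least 2-fold higher than in other cells (11.6% of all tested genes) and 5 lower (30.7%). The higher ones included Fasl, the Fas ligand (24 members, 170-fold), Prf1 (128-fold), Gzmk (at least 192-fold, with 0 UMIs elsewhere) and Ctsw, and the lower ones included Hopx and Tnfsf10, which 578 and 499 of the 611 cells with a high endothelial mean carried. Against other cells with a Ptprc UMI only, Hopx and Tnfsf10 were higher in the set, with log2 ratios of 1.75 and 0.28.

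Gzmk stood in a group of its own neighbours. Of the 15 cells with Gzmk 13 held Ccl5, and all held Nkg7, a gene of the rule. Eomes, a T-box factor of memory and NK cells, was seen in 8 of the 15 (53.3%, 26.6% to 78.7%) and in 8 of the other 108 members (7.41%, 3.25% to 14.1%). Tox was seen in 8 and 33, Pdcd1 (PD-1) in 3 and 22, Cd8a in 8 and 14, and Cd4 in 1 and 34. Median depth was 3676 and 3686 UMIs.

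Cd8-only against Cd4-only cells repeated that contrast. Of 7736 genes tested, 13.3% were at least 2-fold higher in Cd8-only cells and 16.8% at most 0.5 of the Cd4-only rate. The intervals of the 2 rates lay apart for 28 and 113 genes only, since most rates rest on a few UMIs. Those intervals leave out spread between cells, so 1 cell can set them apart. Gsn had 107 of its 111 Cd4-only UMIs in 1 cell, and Mgp 49 of 51. Gzmk was at 2.22 (1.42 to 3.30) against 0.0665 (0.00168 to 0.371), in 8 of 27 and 1 of 34 cells. The chemokine Ccl4 was at 2.13 against 0.0665, in 6 and 1 cells. Lgals3 and St3gal6 were each at 2.13 against 0.199. Ctsw was 4.81-fold, Ccl5 3.84-fold and Nkg7 3.83-fold higher. Nkg7, a gene of the rule, was seen in 23 of 27 Cd8-only and 11 of 34 Cd4-only cells. B930036N10Rik, Anxa6 and Gramd3 were 2.70-fold, 2.68-fold and 2.68-fold higher. Of the 16 granule-list genes tested here 5 were higher and 2 lower, and the intervals lay apart for Nkg7, Gzmk and Ctsw. Tcrg-C2 and Tcrg-C4 were also higher in Cd8-only cells, at 1.39 against 0.0665 and 1.02 against 0, although both classes were chosen against gamma delta genes.

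In the other direction, the named genes were higher in Cd4-only cells. Tnfrsf4, the OX40 receptor, had 75 UMIs in 18 of 34 Cd4-only cells (4.99 per 10000, 3.92 to 6.25) and 0 in the 27 Cd8-only cells (exact interval 0% to 12.8%). Tnfsf8, the CD30 ligand, was seen in 15 and 3 cells (4.32 against 0.277). Cd200, a checkpoint ligand, was at 1.79 against 0.0925. Eea1, Eif4e2, Pou2f2 and Rabgap1l were seen in 14, 16, 16 and 18 Cd4-only cells and in 1, 1, 1 and 2 Cd8-only cells. Cd5 was seen in 18 and 2, and Gata3, a factor of type 2 helper cells, in 16 and 5. Cd74 was at 9.71 against 0.185, with 75 of 146 UMIs in 1 Cd4-only cell, and Cd74 encodes the MHC class II invariant chain of B and myeloid cells. The 8 B-cell genes summed to 4.06 UMIs per 10000 in Cd4-only and 0.370 in Cd8-only cells, and Cd79a was seen in 2 and 0 cells. Without the 9 members that held genes of another lineage, Cd74 was at 2.24 in Cd4-only cells against 0.185. Isg15 and Phlda1 were each seen in 8 Cd4-only cells, and without the cell with most UMIs their Cd4-only rates went from 4.72 to 1.23 and from 2.59 to 1.18, against 0.185 and 0.0925 in Cd8-only cells. Of 12 regulatory T-cell genes tested 8 were lower in Cd8-only cells and 0 higher, with intervals apart for 6. Of these 6, Areg had 13 of its 21 Cd4-only UMIs in 1 cell, and Il1rl1 was seen in 4 Cd4-only cells. Of 11 checkpoint genes 7 were lower and 0 higher, with intervals apart for 3 (Ctla4, Cd200 and Slamf6). Ctla4 is on both lists. Over all 7736 genes tested 16.8% were lower and 13.3% higher, with intervals apart for 113 and 28 genes.

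**Figure D4:**
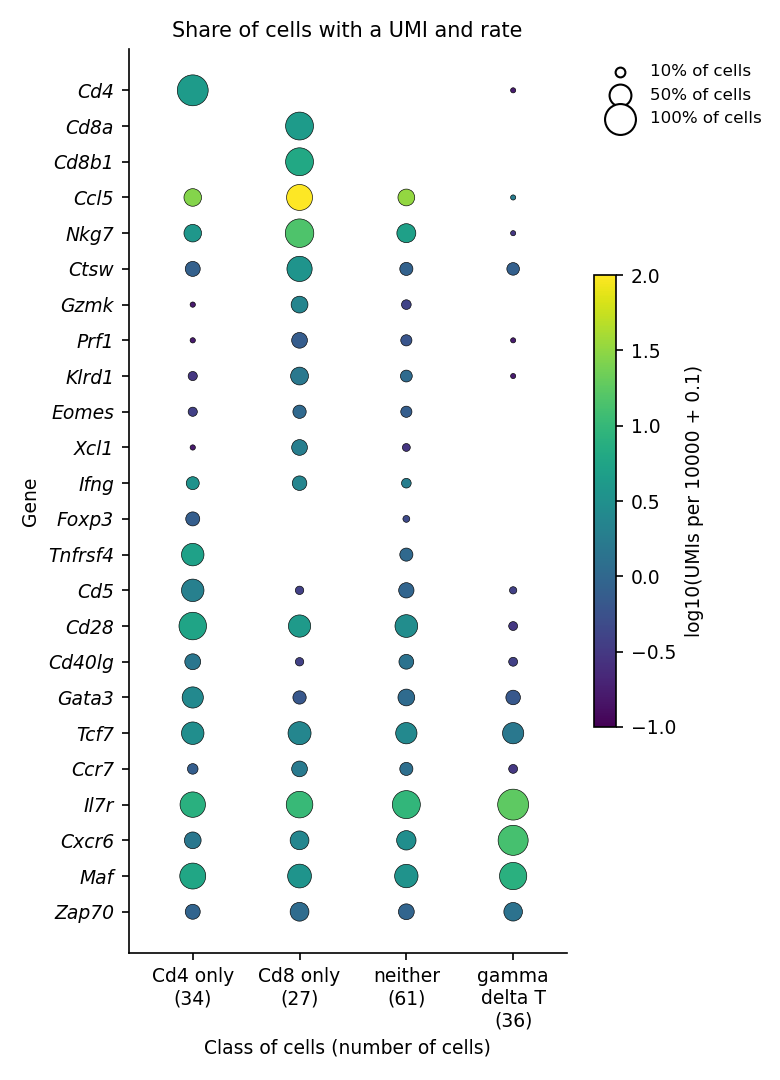
Dot plot of 24 genes (y axis) in the Cd4-only, Cd8-only and neither classes of the set and in the gamma delta T cells (x axis); dot area is the share of cells with a UMI and colour the log10 of UMIs per 10000 plus 0.1. Ccl5, Nkg7 and Gzmk peak in Cd8-only cells, Tnfrsf4 and Cd5 in Cd4-only cells, and Cxcr6 and Il7r in the gamma delta cells.

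Foxp3, the defining factor of regulatory T cells, was seen in 10 members (7 Cd4-only, 0 Cd8-only, 3 with neither) and in 0 other cells. Of those 10, 9 held Tnfrsf4 (90.0%, 55.5% to 99.8%) against 20 of the other 113 (17.7%, 11.2% to 26.0%). Ikzf2 (Helios) and Tnfrsf18 (GITR) were each seen in 8 of 10 against 42 of 113, Ctla4 in 6 against 28 and Capg in 10 against 63. Il2ra, the CD25 receptor chain, was seen in 2 of 10. Of the 10 regulatory genes tested against all other cells, 9 were at least 2-fold higher, against 11.6% of all genes tested. Izumo1r, a folate receptor of regulatory and anergic CD4 cells, was 227-fold higher (17 members). The list's genes are shared with activated T cells, and Ikzf2, Tnfrsf18 and Capg were each seen in at least 50 members.

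Helper cytokines were rare apart from interferon gamma. Ifng had a UMI in 18 members and in 0 other cells, at 2.27 UMIs per 10000 and at least 697-fold higher. The 3 cells with at least 10 Ifng UMIs held 64.2% of its 120 UMIs. Ifng was seen in 6 Cd4-only, 6 Cd8-only and 6 neither-coreceptor cells. Il2 had a UMI in 4 members, Il13 in 2, Il5 in 2 and Il4 in 1. Il17a was seen in 4, but cells with it and another of the rule's gamma delta genes were left out of the set. Stat4, which carries the interleukin-12 signal, was seen in 69 members and Tbx21 (T-bet) in 13. Ccr6 was seen in 20, of which 8 were Cd4-only and 0 Cd8-only.

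Memory and residence genes gave a mixed picture. Il7r was seen in 94 members, S100a4 in 95, Cd69 (an early activation and residence receptor) in 51 and Cxcr6 in 44, whereas Itgae, the CD103 integrin of resident cells, was seen in 12. Genes of recirculating cells were seen too. Klf2 was seen in 75 members, Tcf7 in 63, S1pr1 (the exit receptor) in 51, Ccr7 (a lymph-node homing receptor) in 22 and Lef1 in 19. Klf2 and S1pr1 were common outside the set, in 929 and 731 of the 1221 other cells. Of the 611 cells with a high endothelial mean, 574 and 588 held them. By rate Klf2 was at 11.7 in the set against 7.56 in all other cells, and S1pr1 at 2.63 against 3.7. The part of free RNA in the members' Klf2 and S1pr1 values was not tested. Ccr7 and Cxcr6 rarely met: of 44 cells with Cxcr6, 1 held Ccr7 (2.27%, 0.0575% to 12.0%), whereas of 79 without it 21 held Ccr7 (26.6%, 17.3% to 37.7%). Tcf7 did not share this pattern, at 21 of 44 and 42 of 79. Of the 13 naive and central memory genes tested 7 were at least 2-fold higher than in all other cells and 2 lower. Of 17 effector and residence genes 10 were higher and 2 lower, against 11.6% and 30.7% of all genes tested. Of these 10, Id2 fell under 2-fold without 1 cell.

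The locus that the reporter reads was little seen in these cells. Cdkn2a had 15 UMIs in 12 members (9.76%, 5.14% to 16.4%), 1 each in 11 cells and 4 in the other. That is 0.284 UMIs per 10000 (0.159 to 0.468) against 1.30 (1.23 to 1.37) in all other cells, of which 437 of 1221 (35.8%) held a UMI. After thinning the shares were 6.75% and 21.6%. Among other cells with a UMI of Ptprc, the common leukocyte gene, 76 of 329 held Cdkn2a, 9.74% after thinning, and the rate was 0.691. The table does not resolve p16 from the overlapping p19Arf transcript of the same locus. By class, Cdkn2a was seen in 5 of 34 Cd4-only cells, 7 of 61 with neither coreceptor and 0 of 27 Cd8-only cells (3 counts of 27 are 11.1%; exact interval up to 12.8%), and in 0 of 36 gamma delta T cells (3 counts of 36 are 8.33%; exact interval up to 9.74%). No cell type here is certain to lack Cdkn2a, so no background of free RNA can be given for it. Of the 12 cells with Cdkn2a 3 held any UMI of the endothelial list, against 28 of all 123.

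Other cell-cycle inhibitors split by gene. Cdkn1a (p21) was seen in 19 members at 1.04 per 10000 against 4.59, and in 0 of the 12 cells with Cdkn2a. Cdkn2b (p15) was seen in 8 members, at 0.227 against 1.23 in all other cells and 0.166 in other cells with Ptprc, so its direction depended on the cells compared. Cdkn1b (p27), high in resting T cells, was higher in the set, at 2.01 against 0.876, and Cdkn2d (p19) at 0.833 against 0.275. Of the list's 12 tested genes 3 were at least 2-fold higher and 5 lower, against 11.6% and 30.7% of all genes tested. The mCherry transcript had 1 UMI in each of 2 members (1.63%, 0.198% to 5.75%), against 71 of 1221 other cells (5.81%), although all cells were sorted for the protein. After thinning the mCherry shares were 0.79% and 2.67%, and 0.93% in other cells with Ptprc. The intervals of its rates overlapped, at 0.038 (0.0046 to 0.14) in the set and 0.093 (0.075 to 0.12) in all other cells. Mki67, a marker of cycling cells, was seen in 5 members, 4 of them Cd4-only.

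**Figure D5:**
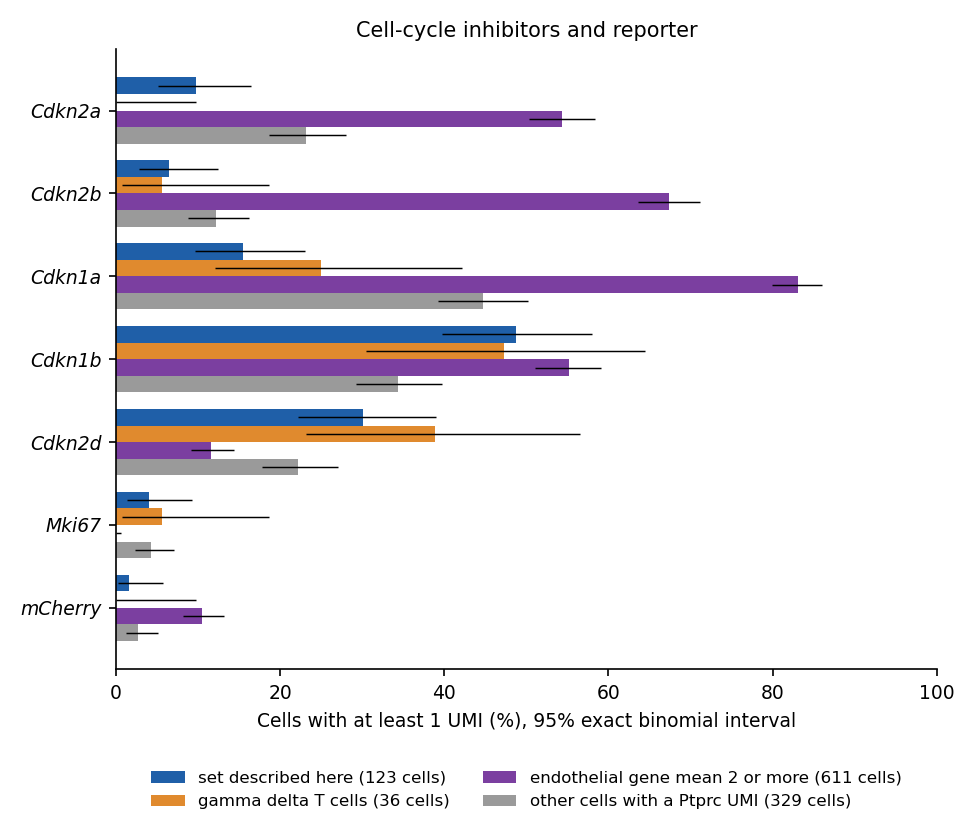
Share of cells with at least 1 UMI (x axis, %, with 95% exact binomial intervals, not thinned) for 5 cell-cycle inhibitors, Mki67 and mCherry in the Cd3 and Trbc2 set, gamma delta T cells, cells with a high endothelial mean and other cells with a Ptprc UMI. Cdkn2a is 9.76% in the set and 54.3% in cells with a high endothelial mean, whereas Cdkn1b is 48.8% and 55.2%.

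Stress genes differed by kind. The heat-shock genes Dnajb1 (7.55 against 1.14 UMIs per 10000), Hsp90aa1 (17.0 against 6.43), Hspa1a (13.9 against 6.12) and Hspa1b were at least 2-fold higher in the set, Hspa1b only with its top cell kept. Hspa1a was at 1.43 in the cells with a high endothelial mean, 16.8 in gamma delta T cells and 11.3 in other cells with Ptprc, and against the last its log2 ratio was 0.30, that of Hsp90aa1 0.78 and that of Hspa1b 0.14, all under 2-fold; that of Dnajb1 was 2.14. Btg1, an antiproliferative gene of resting lymphocytes, was at 17.1 against 3.32 and had a UMI in 121 members. The immediate early genes Fos (3.63 against 10.5), Jun (7.57 against 16.8) and Egr1 (0.852 against 4.28) were lower. Of the list's 17 genes 5 were higher and 5 lower, against 11.6% and 30.7% of all genes tested. Both kinds of gene are also known to respond to tissue handling, whose part in these values was not tested.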

How the data were processed

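The submitters' processing notes name Cell Ranger 3.0.2 and the build mm10 for the reads. Which annotation and cell filters were used is not given in the sources used here. Before deposit the authors scaled each cell's UMIs to 10000, added 1 and took the natural log (ln), as read from the deposited values, which sum to 10000 in a cell once back-transformed. Mitochondrial UMIs were at most 5.00% of any cell, and every gene listed was seen in at least 3 cells. Whole UMIs were recovered from these steps (largest deviation 1.78e-10) in Python 3.11.15 with numpy 2.4.6, scipy 1.17.1, pandas 2.3.3 and matplotlib 3.10.9. A gene was tested when seen in at least 5% of either set, the 13 rule genes left out (for Cd8-only against Cd4-only cells, the coreceptor genes), and called at a ratio of rates of at least 2 or at most 0.5, a count of 0 being set to 3 over the set; such a ratio is a bound and was called only in the direction the bound allows. Thinned shares are expectations after drawing 2500 UMIs from each cell. Depth was 2574 to 16839 UMIs per member. Gene calls were tried on simulated Poisson counts without spread between cells other than depth, so rates set by 1 cell were not tested there. Thinning was compared with direct draws. Members and gene lists were chosen with earlier results of these data known.

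Named genes were the marker and rule genes, up to 10 detected genes of each T-cell or NK-cell list (4 of others) by rate difference, fixed genes such as Cdkn2a and Foxp3, and the 10 highest and 5 lowest ratios among genes with at least 20 UMIs and 20% of cells in the higher set; 5 further genes with low ratios in Cd8-only cells (Eif4e2, Tnfrsf4, Pou2f2, Tnfsf8, Rabgap1l), genes used to describe cells with Ccl5, Gzmk, Cxcr6 or Foxp3, and further genes of the lists, were chosen after their values were seen. A few genes under this rule are left out of the text. Gene positions come from GENCODE M21 (GRCm38), which held 15377 of the 15526 symbols (99.0%). Alternatives were a stricter rule, the rule without Nkg7, other folds and filters, means over cells, removal of cells with other lineages' genes, library 1 alone, non-overlapping intervals and other comparison cells; library 1 alone, non-overlapping intervals and the comparison without gamma delta T cells were added after seeing the data.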

Additional observations from a re-analysis of the deposited data

How the results depend on the processing

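The shares of cells in the set, of each coreceptor class, of granule genes and of Cdkn2a stayed within their intervals under each alternative run. Of 73 alternative values of the shares and gene counts 65 stayed close to the main value and 8 moved. Against the 1139 genes higher and 3012 lower in the set, a 3-fold threshold gave 571 and 1977, and a filter of 1% of cells gave 1774 higher. Against other cells with Ptprc 1767 were lower (42.5% of calls higher, against 27.4%), and the log2 ratio turned positive for Hopx (1.75), Tnfsf10 (0.28), Tox2 (0.48), Lrrc32 (1.35) and Cdkn2b (0.46). For Cd8-only against Cd4-only cells (1026 higher, 1300 lower), a 3-fold threshold gave 330 and 456 and intervals apart 28 and 113. Calling ratios that rest on a count of 0 in either direction, chosen after seeing the data, gave 1433 higher. Of 1141 alternative values for 163 named genes of the first comparison 857 stayed close, 279 moved and 5 reversed, and of 100 for 20 genes of the second 97 stayed close and 3 moved. Library 1 alone shared 1078 of the 1139 higher and 2809 of the 3012 lower genes. No paired analysis was possible because the cells cannot be assigned to the 2 samples. The set rests on 119 cells of 1 library, so differences between animals were not measured, and at a median of 3686 UMIs a gene near 1 UMI per 10000 is missed in many cells.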

Other observations

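Checkpoint genes were carried in part. Of the 10 genes of the list tested, 7 were at least 2-fold higher by rate in the Cd3 and Trbc2 set than in all other cells. Over all genes tested the share was 11.6%. Tox, a factor of chronically stimulated T cells, had a UMI in 41 of 123 members (1.12 UMIs per 10000 against 0.0174). Pdcd1 had a UMI in 25 members (0.889 against 0.0228). In gamma delta T cells Pdcd1 had a UMI in 9 of 36 and a higher rate than in the set, 1.47. Tox was seen there in 7, at 0.631. The further inhibitory receptors were rarer, with Lag3 in 9 members, Tigit in 3 and Havcr2 in 2. Slamf6, a receptor of less differentiated cells, had a UMI in 39 members and in 0 gamma delta T cells.

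Genes of group 2 innate lymphoid cells were carried in part. All 4 tested genes, Gata3, Rora, Hlf and Klrg1, were at least 2-fold higher than in all other cells, against 11.6% of all genes tested. T cells express these 4 as well. Il1rl1, the interleukin-33 receptor, had a UMI in 4 members, Il5 in 2 and Il13 in 2, whereas Areg, a growth factor of repair, had a UMI in 11. Homing integrins were common, with Itgb7 in 79 members, Itga4 in 68 and Itgal in 53. Itga4 had a UMI in 3 of 36 gamma delta T cells, whereas Itgb7 had one in 33.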
